A study of Mus musculus with 8 samples.

Results

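The genes described here are 42 effector genes that type I interferon switches on, listed by symbol: RNA-binding proteins, nucleic acid sensors, guanosine triphosphatases and other proteins that act against viruses and intracellular bacteria. They were chosen as a list of known interferon-stimulated genes, and probes were assigned to them through the transcript accession of each probe. A probe was found for 40 of the 42, and all 40 passed the filter on dim probes, among 15203 genes tested. Mx1 and Mx2 were not matched to a probe. The cells were RAW 264.7, an established macrophage-like tumour line of BALB/c mouse origin. Treated cells received 1 of 3 bacteria, namely Bacillus clausii, Bifidobacterium bifidum or Lactobacillus acidophilus, at a multiplicity of infection of 1 (1 bacterium per cell) for 6 hours. Each of 8 two-colour microarrays carried RNA of treated cells in the red dye Cy5 and RNA of untreated cells of the same time in the green dye Cy3, with no dye swap. L. acidophilus had 2 arrays, B. clausii 3 and B. bifidum 3. All groups are 1 cell line in antibiotic-free medium with serum, so none of them represents primary macrophages, and a dye effect common to all arrays cannot be told apart from an effect common to all strains.

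Type I interferons bind the receptor made of Ifnar1 and Ifnar2, and the signal passes through kinases to a transcription factor complex that contains Irf9. This complex binds the interferon-stimulated response element in the promoters of the effector genes. Macrophages make interferon beta after sensing bacterial cell walls or nucleic acids, and a low constitutive loop of interferon beta and its receptor sets the resting level of many of these genes. The factor Irf7 is itself induced and amplifies the loop.

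Promoter sequences are shown for 8 members, because 6 of them carry the core of the response element just before their start and the other 2, Oasl1 and Trim25, are the members that were higher with B. clausii. A promoter window from RefSeq (mouse build GRCm38.p6, 250 bases before to 50 after the annotated start) was found by symbol for 31 of the 42 members. The core was searched as GAAA, any 2 bases, GAAA on both strands (TTTC, any 2 bases, TTTC when read on the other one), and overlapping matches were counted. It was present in 15 of these 31 members (48.4%), against 1079 of all 27025 genes in the table (3.99%, or 3.44% of windows). The gamma-activated site, searched as TTCNNNGAA, was present in 9 of 31 (29.0%), against 9.55% of all genes and 8.30% of windows. Below are the 120 bases before each start, 5′ to 3′ on the gene's strand, with the core on either strand in capitals. A match is a description of letters and not of binding, and no match says only that these letters are not in the window.
Isg15, chr4:156200819-156200938, minus strand: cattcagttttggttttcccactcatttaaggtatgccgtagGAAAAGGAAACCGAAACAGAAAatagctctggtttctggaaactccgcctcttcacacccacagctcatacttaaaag
Oas1a, chr5:120907526-120907645, minus strand: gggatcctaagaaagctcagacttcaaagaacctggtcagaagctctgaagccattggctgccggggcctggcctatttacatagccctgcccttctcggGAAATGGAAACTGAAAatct
Ifit1, chr19:34640769-34640888, plus strand: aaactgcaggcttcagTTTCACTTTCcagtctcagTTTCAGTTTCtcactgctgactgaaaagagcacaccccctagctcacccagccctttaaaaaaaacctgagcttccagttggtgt
Igtp, chr11:58199436-58199555, plus strand: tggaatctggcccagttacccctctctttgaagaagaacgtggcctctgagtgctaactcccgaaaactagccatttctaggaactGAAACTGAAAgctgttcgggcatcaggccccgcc
Irgm1, chr11:48871421-48871540, minus strand: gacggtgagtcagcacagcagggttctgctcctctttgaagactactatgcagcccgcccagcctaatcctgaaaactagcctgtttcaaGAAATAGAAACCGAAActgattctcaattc
Gbp3, chr3:142559924-142560043, plus strand: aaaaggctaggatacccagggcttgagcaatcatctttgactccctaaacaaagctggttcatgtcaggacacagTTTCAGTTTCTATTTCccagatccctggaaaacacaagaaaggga
Oasl1, chr5:114923120-114923239, plus strand: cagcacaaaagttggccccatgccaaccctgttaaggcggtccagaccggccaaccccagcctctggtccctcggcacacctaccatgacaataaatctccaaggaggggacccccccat
Trim25, chr11:88999283-88999402, plus strand: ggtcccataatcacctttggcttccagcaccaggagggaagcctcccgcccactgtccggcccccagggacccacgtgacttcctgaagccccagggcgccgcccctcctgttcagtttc
In Isg15 3 overlapping cores form 1 stretch, while in Ifit1 the 2 cores lie apart and on the other strand.

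The arrays lay on 2 slides: both L. acidophilus arrays and the third array of each other strain were on slide 1, and the remaining 4 arrays, from B. clausii and B. bifidum, were on slide 2. The B. clausii array of slide 1 stood apart. Its grid was marked as not good, 12543 of its probes were well above background (21508 to 26473 on the others), and 21 of the 40 members were not well above background in either dye. The second B. bifidum array of slide 2 was mildly apart from the other arrays of its slide, and Cmpk2 had no value on it. Macrophage markers were present in the untreated cells: 5 of 8 measured ones, among them Adgre1, Csf1r and Cd14, were well above background on all 8 arrays, while Mertk was so on none. Nothing in the labels ties an array to its own culture or its own untreated RNA, so p-values measure only the spread between arrays, which may be technical.

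The difference of greatest size among these genes was in the untreated cells, between the slides. On slide 2 the untreated (Cy3) level was higher than on slide 1 for 33 of the 40 members, and for none was it lower past the threshold (limma, Benjamini-Hochberg adjusted p under 0.05 over all genes tested). Of all genes tested, 27.0% passed in either direction, 16.4% as higher and 10.6% as lower. The members' median log2 difference was 2.28 against 0.09 for all genes. Without the B. clausii array of slide 1, 36 members passed. Without it and the second B. bifidum array, a choice made after seeing the data, 38 did. The share of all genes in these fits is not given here. The call depended on scaling: with no normalization between arrays 2 members passed, at a median of 1.11 against -0.67 for all genes. Per the file headers, the arrays of slide 1 were extracted with an extended signal range and those of slide 2 were not. Saturated Cy3 spots numbered 0 on each array of slide 1 and 86 to 135 on those of slide 2. Slide, scan with its signal range, and the batch of untreated cells cannot be told apart.

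**Figure D1:**
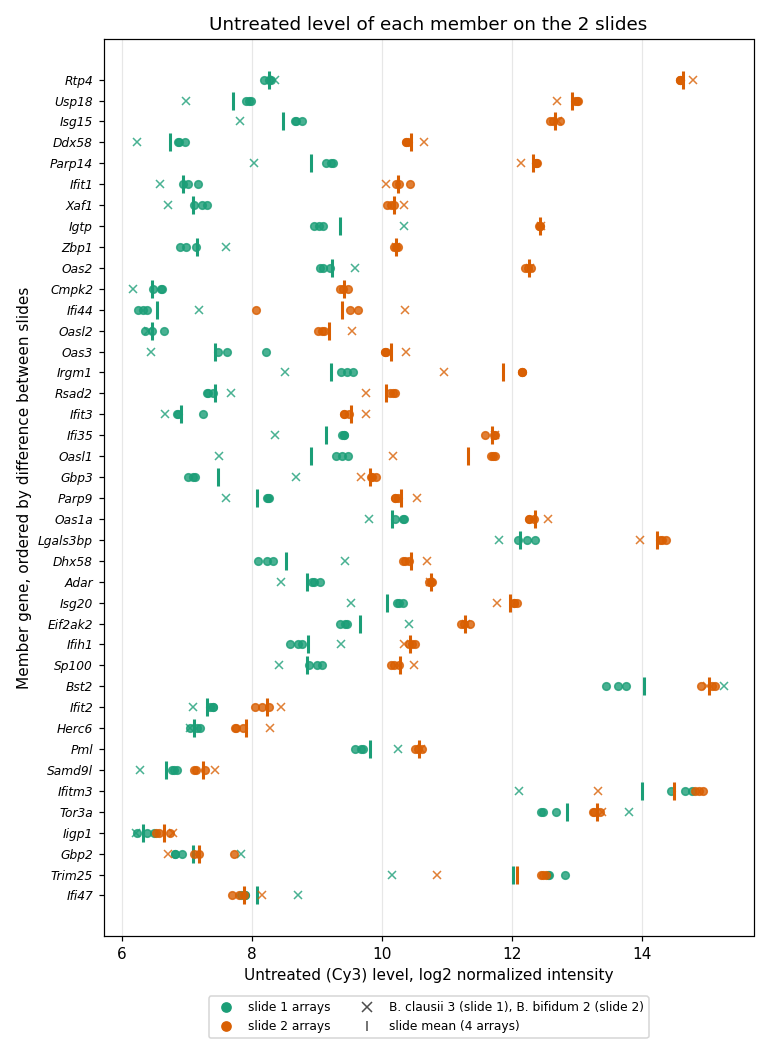
Untreated (Cy3) level of the 40 members on a log2 scale of normalized intensity, one point per array, for slide 1 (green) and slide 2 (orange), with vertical bars at the mean of each slide and crosses for the B. clausii array of slide 1 and the second B. bifidum array of slide 2. Members are ordered by the difference between slides, from Ifi47 (-0.20) to Rtp4 (6.36).

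Rtp4, a chaperone that helps receptors reach the cell surface, had the widest gap. Its untreated log2 level was 8.18, 8.29, 8.34 and 8.26 on the 4 arrays of slide 1 and 14.58, 14.58, 14.58 and 14.78 on those of slide 2. The groups lay far apart, and the difference of 6.36 ± 0.10 (SE; 82.3-fold, limma adjusted p = 3.58e-08) was the greatest among the members. Among the genes of the ISG15 system, Isg15, the ubiquitin-like protein that is attached to other proteins, averaged 8.48 ± 0.45 (SD, n = 4) on slide 1 and 12.66 ± 0.07 on slide 2, which is 18.2-fold. Usp18, the protease that removes ISG15 and damps the receptor, went from 7.71 ± 0.48 to 12.92 ± 0.15, or 37.0-fold (limma adjusted p = 4.01e-06). Herc6, the ligase that attaches ISG15 in the mouse, differed by 0.79 through its used probe, while its second probe differed by -0.68. Trim25, a ligase that activates Ddx58, did not pass: its levels of 10.15 to 12.81 on slide 1 and 10.85 to 12.52 on slide 2 overlapped, and the fitted difference was 0.05.

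All 3 tetratricopeptide genes, whose proteins bind viral RNA ends, were higher on slide 2. Ifit1 read 6.94, 7.17, 6.59 and 7.01 on slide 1 and 10.43, 10.21, 10.26 and 10.06 on slide 2, a 9.94-fold difference. Ifit3 differed by 2.62 and Ifit2 by 0.92. The Ifit genes, like the Oas genes, have near-identical relatives, and the probe sequences were not examined here, so which copy each probe reads is uncertain.

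All 6 genes of the oligoadenylate and RNA degradation group were higher on slide 2, by 1.89 to 3.03. The Oas proteins make the second messenger that activates RNase L. Oas2 averaged 9.23 ± 0.24 (SD, n = 4) and 12.25 ± 0.04, or 8.15-fold (a dimmer probe differed by 0.53), and Oas1a averaged 10.16 ± 0.25 and 12.35 ± 0.14. Oasl2 was not well above background in Cy3 on any array of slide 1, so it is given as at least 6.58-fold higher on slide 2. This bound sets the mean of the bright slide against, on each array of the dim slide, the higher of the gene's own signal and the lowest signal well above background. For Oasl2 the bound was the same as the measured difference (2.72 on the log2 scale).

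The 6 sensors and editors were higher as well, by 1.57 to 3.72. Ddx58, which encodes the RNA sensor RIG-I, averaged 6.73 ± 0.34 (SD, n = 4) and 10.45 ± 0.14 through its brightest probe, or 13.1-fold. Its other probes differed by 0.24 to 1.62, so the size depends on the probe. Zbp1, a sensor of Z-form nucleic acid, was 8.34-fold higher. The double-stranded RNA sensor Ifih1 differed by 1.57 and the RNA editor Adar by 1.91.

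The remaining groups were mixed. The ADP-ribosyltransferase gene Parp14 averaged 8.90 ± 0.59 (SD, n = 4) on slide 1 and 12.31 ± 0.12 on slide 2, a 10.6-fold difference through its brightest probe, while its 2 dimmer probes differed by 0.35 and 0.73, and its partner Parp9 differed by 2.22. Of the 6 genes for immunity-related GTPases and guanylate-binding proteins, which attack the vacuoles of intracellular microbes, 3 passed: Igtp (8.43-fold), Irgm1 and Gbp3. Ifi47, Gbp2 and Iigp1 did not pass, with differences of -0.20, 0.09 and 0.32. Iigp1 was not well above background on slide 1 and was so on 2 of the 4 arrays of slide 2. Of the 5 membrane-acting genes Rtp4 and Rsad2, which encodes the antiviral enzyme viperin, passed. Bst2, which tethers budding virus, differed by 1.00 (limma adjusted p = 0.079), Ifitm3, which blocks viral fusion, by 0.49 and Tor3a, an ATPase of the endoplasmic reticulum, by 0.47, and none of the 3 passed. The nuclear body genes Pml and Sp100 passed with smaller differences of 0.76 and 1.43. All 6 of the other members passed, and Xaf1 was 8.55-fold higher, Cmpk2 at least 7.53-fold and Ifi44 at least 7.15-fold. The Cmpk2 value comes from its brighter probe, and a dimmer probe differed by 0.71 on the log2 scale.

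Other genes of the cells moved with the slide. Neutrophil markers summed to linear levels of 15727 to 72611 over 6 genes on slide 1 and 635 to 721 on slide 2. The slide 1 sum is mostly S100a8, at log2 levels of 13.82 to 16.13 there and 6.88 to 7.18 on slide 2. Of 5 tested, 3 were lower and 0 higher on slide 2. Mpo (6.53 to 7.41 and 6.61 to 7.07) and Ltf (6.40 to 6.73 and 6.67 to 7.11) overlapped between slides. The defining marker Elane was well above background on 1 array. Osteoclast markers summed to 5526 to 8264 on slide 1 and 1538 to 2794 on slide 2, but not all went this way. By limma 4 of the 7 tested were lower on slide 2 and 0 higher. Ocstamp read 6.52 to 7.94 on slide 1 and Oscar 8.38 to 8.67. On slide 2 they read 9.34 to 9.45 and 9.82 to 9.90, except on the second B. bifidum array. There Ocstamp was 7.24 and Oscar lay below its slide 1 range. Macrophage markers summed to 78454 to 92482 on slide 1 and 53492 to 57710 on slide 2. The macrophage sum is mostly Cd14: of 7 markers tested 3 were lower and 1 higher on slide 2, and Fcgr1 went from 8.34 to 9.47 on slide 1 to 12.01 to 12.32 on slide 2. The summed levels of dendritic (885 to 1126 and 1036 to 1204), lymphocyte (789 to 954 and 820 to 1639), fibroblast (538 to 626 and 520 to 669) and epithelial markers (563 to 759 and 529 to 1014) overlapped between slides, and Clec9a, Siglech, Ccr7, Cd3g, Ms4a1, Ncr1, Dcn and Epcam were well above background on no array. The part of these markers in the members' difference was not tested. In bulk RNA, fewer cells that express a gene and less RNA per cell cannot be told apart.

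Of the interferon pathway itself, 37 genes were tested, with a median difference of 0.10 between slides in the untreated cells. Of these, 10 were higher and 2 lower on slide 2, where 16.4% of all genes were higher and 10.6% lower. Irf7 was higher by 3.33 ± 0.11 (SE; limma adjusted p = 9.01e-07). The receptor chain Ifnar2 was higher by 1.26 and the factor Irf9 by 2.66. The interferon gene Ifnb1 did not pass, at -0.37. Socs3, a brake on cytokine receptors, was lower by 2.34 on the log2 scale. Among 39 further interferon-stimulated genes 25 were higher and 4 lower, with a median of 1.13, and Apol9b had the smallest p at a difference of 5.40 ± 0.15.

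With B. clausii on slide 2, most of the members were lower than in the untreated cells of the same arrays. Of 40 members 35 fell and 2 rose, with a median log2 ratio of -0.72 against -0.01 for all genes. On these arrays many genes passed: 55.9% of all genes tested were called, 30.3% as lower and 25.7% as higher. The B. clausii arrays gave member medians of -0.69 and -0.72, with 37 of 40 members below 0 on each and 28 beyond 0.5 in size, a size that 15.5% to 16.4% of all genes reached. Of 7 macrophage markers tested 5 also fell on these arrays, with a median of -0.53, and their part in the members' fall was not tested.

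**Figure D2:**
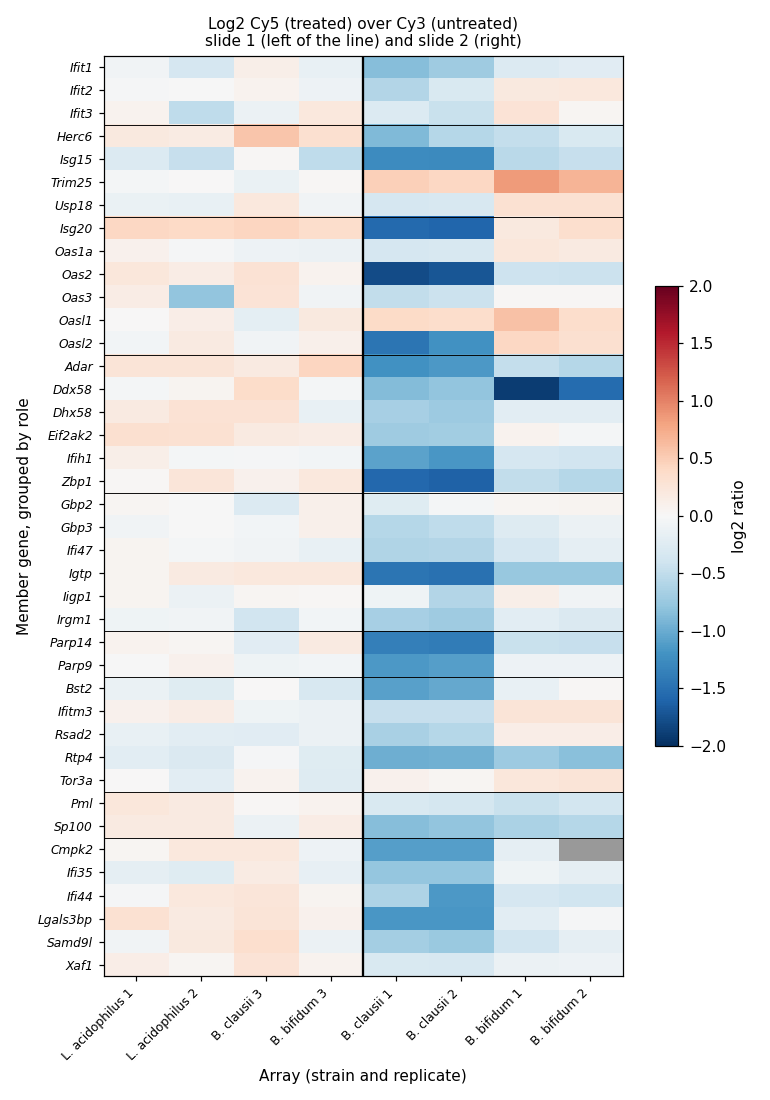
Log2 ratio of treated (Cy5) over untreated (Cy3) for the 40 members (rows, grouped by role) on the 8 arrays (columns), blue below 0 and red above 0, with grey for a missing value. The B. clausii arrays of slide 2 are blue in 37 rows, and the arrays of slide 1 stay close to 0.

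All 6 sensors and editors fell with B. clausii. Zbp1 gave -1.57 and -1.62 on the 2 arrays (3.02-fold lower, limma adjusted p = 9.75e-05), and Ifih1 gave -1.07 and -1.17. The Ifih1 value comes from the brighter of 2 probes, and the dim one gave 0.09. Adar gave -1.20 and -1.15 through its used probe, but a second, equally bright probe gave -0.18.

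Of the oligoadenylate and RNA degradation group 5 fell and 1 rose. Oas2 gave -1.78 and -1.71, the greatest fall among the members at 3.35-fold, while a dimmer Oas2 probe gave -0.42. Isg20, a nuclease that degrades single-stranded RNA, gave -1.56 and -1.59 (2.97-fold lower), and Oasl2 gave -1.46 and -1.21 (2.53-fold lower). Oasl1, which limits translation of Irf7, gave 0.38 and 0.35 and passed as higher (limma adjusted p = 0.00628), but median centring moved it to -0.32, against a median of -0.30 over all genes.

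In the ISG15 system Isg15 fell by 1.26 ± 0.04 (SE) on the log2 scale, with -1.25 and -1.27 on its arrays, and Usp18 fell less, with -0.34 and -0.31. Herc6 fell through its used probe (-0.88 and -0.57), while its second probe gave 0.08. Trim25 gave 0.48 and 0.42 and rose. Median centring moved it to -0.22, against a median of -0.30 over all genes. A dimmer Trim25 probe gave 0.20 with loess.

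Igtp, whose protein protects self membranes from the other GTPases, gave -1.46 and -1.50 (2.79-fold lower). Irgm1, Ifi47 and Gbp3 fell as well, while Gbp2 (-0.14) and Iigp1 (-0.34) did not pass. Both ADP-ribosyltransferase genes fell: Parp14 gave -1.37 and -1.39, and Parp9 gave -1.15 and -1.10. The Parp14 values come from its brightest probe, and its dimmer probes gave -0.28 and -0.56.

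The 3 tetratricopeptide genes fell by less, Ifit1 with -0.84 and -0.71, Ifit2 with -0.59 and -0.31 and Ifit3 with -0.27 and -0.44. Of the membrane-acting genes Bst2, Rtp4, Rsad2 and Ifitm3 fell, by -1.09 and -1.02 for Bst2 and -0.98 and -0.95 for Rtp4, and Tor3a did not pass at 0.07, while its second probe gave -0.86. Among the rest Lgals3bp, a secreted glycoprotein that binds galectins, fell 2.24-fold and Cmpk2, a mitochondrial nucleotide kinase, 2.14-fold. A dimmer Cmpk2 probe gave -0.31 on the log2 scale. Samd9l was not well above background in Cy5 on these arrays and is given as at least 1.61-fold lower. The nuclear body genes fell as well: Sp100 gave -0.85 and -0.78 and Pml -0.30 and -0.34.

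Over 5 scalings of the ratio (loess with and without background correction, median centring, the scanner's processed signals and the deposited table), 37 members stayed below 0 with B. clausii and 3 changed sign, namely Oasl1, Tor3a and Trim25. Median centring moved the median of all genes to -0.30 and that of the members to -1.35, and 35 members passed, all lower.

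With B. bifidum on the same slide 18 members fell and 8 rose of 40, with a median of -0.16. Of all genes tested 38.7% were called, 23.6% as lower and 15.1% as higher. Of 7 macrophage markers 3 fell and 1 rose, and their part in the members' ratios was not tested. The counts moved with scaling: with median centring the count was 25 lower and 0 higher (median of all genes -0.42), with the scanner's processed signals 14 lower and 1 higher, and 6 lower and 2 higher with the deposited table, where 20.0% of members and 19.2% of all genes passed. Without the first B. bifidum array 15 passed and without the second 16.

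The sensors again were mostly lower, 5 of 6. Zbp1 gave -0.50 and -0.56, Adar -0.48 and -0.57, and Ifih1 -0.33 and -0.38, each nearer to 0 than with B. clausii. Ddx58 gave -1.90 and -1.54 through its brightest probe, the greatest fall with B. bifidum, but its other 3 probes gave 0.01 to -0.22, so the fall rests on 1 probe. Eif2ak2, the kinase that stops translation on double-stranded RNA, gave 0.07 and -0.04 and did not pass.

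Igtp gave -0.76 on both arrays, and Rtp4 gave -0.73 and -0.84 (1.72-fold lower, limma adjusted p = 0.000539). The nuclear body genes fell too, Sp100 with -0.63 and -0.56 and Pml with -0.45 and -0.36. Isg15 gave -0.53 and -0.46, Parp14 -0.44 and -0.46 and Oas2 -0.41 and -0.43.

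The 8 members that passed as higher were Trim25 (0.85 and 0.68), Oasl1 (0.58 and 0.35), Oasl2 (0.41 and 0.33), Usp18 (0.30 and 0.31), Isg20 (0.19 and 0.34), Ifitm3 (0.25 and 0.25), Tor3a (0.22 and 0.26) and Oas1a (0.23 and 0.18). Median centring put all 8 below 0, but it put the median over all genes at -0.42, and against that Trim25 (-0.09), Oasl2 (-0.29) and Oasl1 (-0.33) stayed above and the other 5 lay below. With loess a dimmer Trim25 probe gave 0.16. Of the 6 oligoadenylate and RNA degradation genes 4 were higher with loess and 1, Oas2, was lower. The median of that group was 0.24 with B. bifidum and -0.90 with B. clausii.

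**Figure D3:**
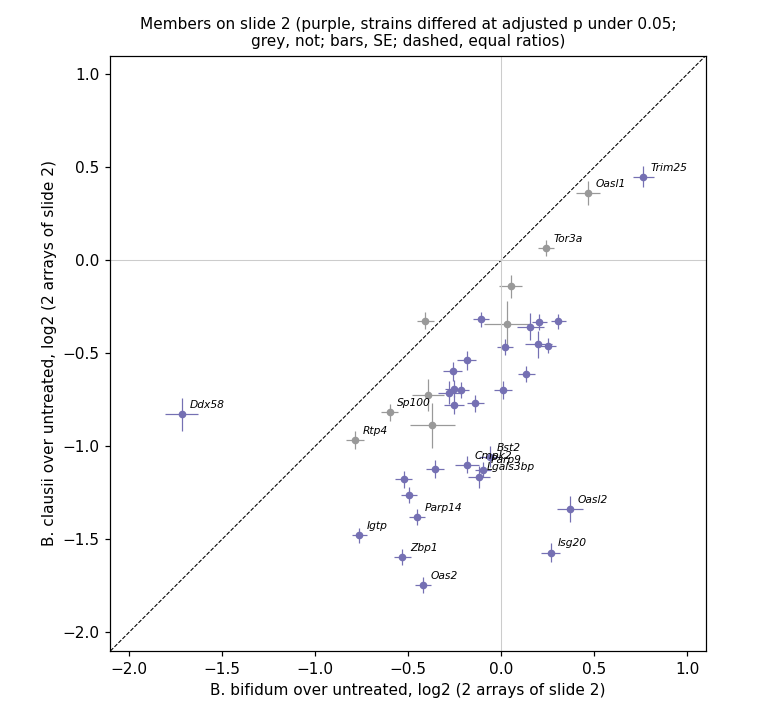
Log2 ratio over untreated cells with B. clausii (vertical axis) against B. bifidum (horizontal axis) for the 40 members on slide 2, each a mean of 2 arrays with SE bars, purple where the strains differed at an adjusted p under 0.05 and grey where they did not. Most points lie below the dashed line of equal ratios, with Ddx58 above it.

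The difference between these strains was tested directly on slide 2, where both had 2 arrays. It was lower with B. clausii for 30 members and higher for 1, with a median of -0.53, and 29.6% of all genes were called, 14.7% as lower and 14.9% as higher. Of 7 macrophage markers 4 were also lower (median -0.28), as were 4 of 7 osteoclast markers (median -0.40), and their part in the difference was not tested. Isg20 differed by -1.84 ± 0.07 (SE; 3.57-fold, limma adjusted p = 0.00062), since it fell with B. clausii and stood above 0 with B. bifidum. Oasl2 differed by -1.71 ± 0.10 and Oas2 by -1.33 ± 0.06. Zbp1 (-1.06), Lgals3bp (-1.04), Parp9 (-1.03), Bst2 (-0.99) and Parp14 (-0.93) followed. Ddx58 was the member called higher, at 0.89, and with the mean of its probes the difference was -0.01. For the 9 that did not pass, Oasl1 (-0.11), Pml (0.08), Tor3a (-0.17), Rtp4 (-0.18), Gbp2 (-0.19) and Sp100 (-0.22) had small differences, and Herc6 (-0.33), Iigp1 (-0.37) and Ifi44 (-0.52) larger ones with more spread. Other scalings gave lower counts: 0 members passed with median centring, 6 with the deposited table and 8 with processed signals, while 35 members stayed below 0 in all 5.

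On slide 1 the members' ratios lay close to 0. The median log2 ratio was 0.04 on both L. acidophilus arrays, 0.06 on the B. clausii array and -0.01 on the B. bifidum array, and at most 2 members per array lay beyond 0.5. For B. clausii the closeness says little, since 21 of the 40 members were not well above background in either dye on its array. The 19 that were gave ratios of -0.13 to 0.55 with a median of 0.07. Several members were dim on all of slide 1, such as Ifit1, Ifit3 and Ddx58, with mean untreated log2 levels of 6.93, 6.90 and 6.73. The lowest Cy3 signal well above background was 4.32 and 6.31 on the L. acidophilus arrays and 6.23 on the B. bifidum array. Members this dim had little room to show a fall of the size seen on slide 2. With L. acidophilus, fitted over all 8 arrays, 0 of 40 members and 0% of all genes were called by limma, while 0 members and 1105 genes had an unadjusted p under 0.05. The members with the smallest p were Eif2ak2 at 0.31 ± 0.19 (SE; limma adjusted p = 0.763) and Ifit3 at -0.22 ± 0.14 (limma adjusted p = 0.784). Eif2ak2 gave 0.32 and 0.31 on the L. acidophilus arrays. The error of this fit is shared over all 8 arrays, so differences between slides in the other strains enter it. The absence of calls therefore says little about small ratios that were alike on both L. acidophilus arrays. Isg20 gave 0.41 and 0.39 on the L. acidophilus arrays, and it also gave 0.43 and 0.35 on the B. clausii and B. bifidum arrays of that slide. Isg15 gave -0.27 and -0.46 on the L. acidophilus arrays, -0.51 with B. bifidum and 0.02 on the B. clausii array, where it was not well above background. Ifi44 and Iigp1 were not well above background in either dye on the L. acidophilus arrays, and Oasl2 and Cmpk2 were not in Cy3.

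**Figure D4:**
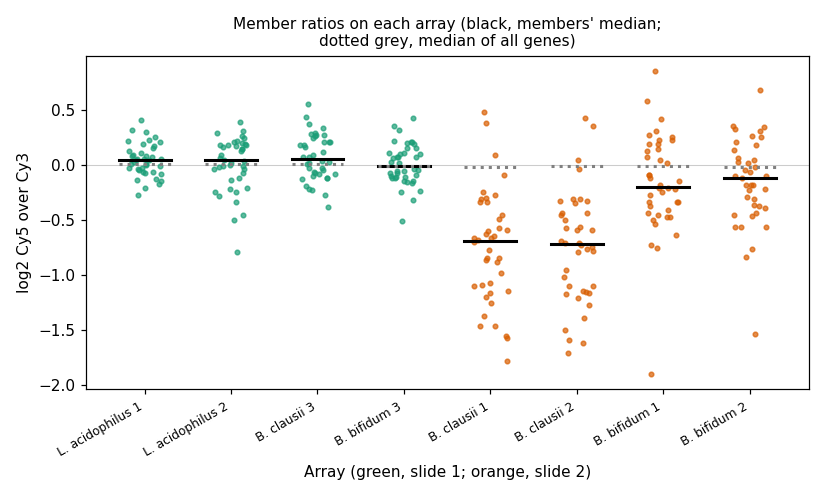
Log2 ratio of each member on each array (points, green for slide 1 and orange for slide 2), with the median of the members (black) and of all genes (dotted grey). The B. clausii arrays of slide 2 have member medians of -0.69 and -0.72, and the other arrays lie between -0.20 and 0.06.

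The ratio itself differed between slides for the same strain. With B. clausii it was lower on slide 2 for 32 members and higher for 2, with a median of -0.91, where 38.7% of all genes were called, 22.6% as lower and 16.0% as higher. Slide 1 holds 1 array of this strain, the one that stood apart, and among the 19 members well above background on it 16 were called lower and 1 higher. Oas2 differed by -2.03 ± 0.07 (SE) and Igtp by -1.69 ± 0.08, both well above background there. With median centring 5 members were called (12.5%, against 0.245% of all genes).

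With B. bifidum the ratio was lower on slide 2 for 12 members and higher for 6, with a median of -0.09, where 29.8% of all genes were called, 17.3% as lower and 12.5% as higher. Ddx58 differed by -1.68 through its brightest probe. Igtp differed by -0.97 ± 0.08 (SE), Adar by -0.95 and Sp100 by -0.75, while Isg15 differed by 0.01. With median centring 0 members and 0% of all genes were called. With processed signals 13 members were, all lower (32.5%, against 21.8% of all genes). The untreated level that forms the denominator also differed between slides, as described above, and its part in the ratios was not tested. Members dim on slide 1 had little room to show a fall there.

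Fitted over all 8 arrays, the spread between slides entered the error. With B. clausii 4 members fell and 0 rose, with a median of -0.44, where 4.8% of all genes were called, 2.62% as lower and 2.17% as higher. These were Irgm1 at -0.59 ± 0.08 (SE; limma adjusted p = 0.0304), Rsad2 at -0.48 ± 0.10, Parp14 (2.00-fold lower) and Parp9 at -0.78 ± 0.18. None of the 4 was well above background in either dye on the B. clausii array of slide 1, so what was measured above background comes from the 2 arrays of slide 2. On the slide 1 array the used probe of Irgm1 gave -0.38 and its second, almost equally bright probe 0.38, while Rsad2 gave -0.22 through its used probe and 0.05 and -0.08 through the other 2. The count was 32 without the B. clausii array of slide 1, 19 with the slide as a block (25.2% of all genes) and 27 with the replicate number as a block (28.5% of all genes), and it was 0 when either other B. clausii array, either L. acidophilus array or either B. bifidum array of slide 2 was left out.

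With B. bifidum over all arrays 0 members were called by limma, where 1.72% of all genes were (1.22% lower, 0.506% higher), and 5 had an unadjusted p under 0.05. Ddx58 (-1.16), Rtp4 (-0.60), Oasl1 (0.38) and Trim25 (0.52) had the smallest p, with limma adjusted p of 0.114 to 0.136. With the slide as a block 5 members passed (12.5%, against 14.0% of all genes), and with the replicate number as a block 7 (17.5%, against 14.9%), so neither share stands far from that of all genes. Between B. clausii and B. bifidum 0 members were called by limma over all arrays, where 0.0263% of all genes were (0.0132% in each direction), and 10 had an unadjusted p under 0.05. Without the B. clausii array of slide 1 24 members passed, but the share of all genes in that fit is not given here. With the slide as a block 4 did (10%, against 1.56% of all genes), and with the replicate number as a block 0 (0.0197% of all genes).

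In treated cells of slide 2 most members stood above their untreated level on slide 1, 36 of 40 with B. clausii and 38 of 40 with B. bifidum. Ifi47, Iigp1, Samd9l and Herc6 were below it with B. clausii, and Ifi47 and Gbp2 with B. bifidum. The median over the members of the mean log2 level was 8.37 in untreated and 8.29 in L. acidophilus-treated cells of slide 1, and 10.44 in untreated, 9.62 in B. clausii-treated and 10.23 in B. bifidum-treated cells of slide 2. Isg15 stood at 8.48 and 12.66 in the untreated cells and at 11.42 with B. clausii on slide 2, and Rtp4 at 8.27, 14.63 and 13.61. Isg20 lay between, with 10.48 in B. clausii-treated cells of slide 2 against 10.08 in untreated and 10.64 in L. acidophilus-treated cells of slide 1. Levels between slides rest on the normalization between arrays. The share of all genes above their untreated level of slide 1 was not computed, so the counts of 36 and 38 cannot be set against it.

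**Figure D5:**
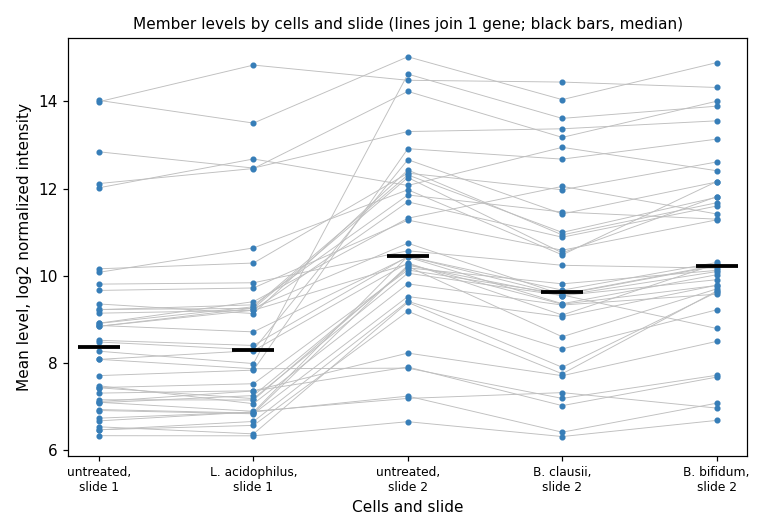
Mean log2 normalized intensity of each member (blue points, lines join 1 gene) in untreated and L. acidophilus-treated cells of slide 1 and in untreated, B. clausii-treated and B. bifidum-treated cells of slide 2, with black bars at the median over members. The medians are 8.37, 8.29, 10.44, 9.62 and 10.23.

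Among the upstream genes of the pathway, 10 rose and 15 fell of 37 with B. clausii on slide 2, with a median of -0.06, where 25.7% of all genes rose and 30.3% fell. Irf7 gave -1.35 and -1.33 (limma adjusted p = 9.75e-05), and Ifnar1 fell by 0.89 on the log2 scale. Ifnb1 rose by 0.56 ± 0.05 (SE), with 0.52 and 0.61, from a dim untreated level of 6.34 to 6.68 on that slide. With B. bifidum 7 rose and 11 fell, where 15.1% and 23.6% of all genes did. Irf2, which competes with the activating factors, had the smallest p at -0.81, Ifnar1 fell by 0.55 on the log2 scale, and the interferon gamma receptor chain Ifngr2 rose by 0.41. Between the strains 7 were higher and 9 lower with B. clausii (14.9% and 14.7% of all genes), and Irf7 had the smallest p at -1.58 ± 0.06.

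The 39 further interferon-stimulated genes gave 2 higher and 25 lower with B. clausii on slide 2 (25.7% and 30.3% of all genes). Their median was -0.28. Ifi27l2a (-1.52), Apol9b (-1.12) and Parp12 (-1.04) had the smallest p. With B. bifidum 4 were higher and 9 lower, where 15.1% and 23.6% of all genes were, and Slfn5 gave 0.48 and Plscr1 0.40. Between the strains 3 were higher and 20 lower with B. clausii (14.9% and 14.7% of all genes). Slfn5 differed by -1.17 and Ifi27l2a by -1.11.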

How the data were processed

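The deposited scanner files hold the brightness of each spot and its background as linear intensity, per the file headers made with Agilent Feature Extraction 10.7.3.1, whereas 10.5.1.1 is the version in the submitters' processing notes. The authors' deposited value table holds the scanner's log10 ratio of Cy5 over Cy3, which it matched on every array to within 0.005. Dyes were assigned per the labels.

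The analysis used R 4.3.3, limma 3.58.1 and, for promoters and plots, Python 3.11.15. Background was removed from median signals by normexp (offset 50), fitted on every spot, and ratios were normalized within arrays by loess with controls at weight 0, and levels also between arrays by Aquantile. Outlier spots were left out. A probe was kept when 1 dye or both exceeded background clearly on 2 or more arrays, which held for 28598 of 41174. Probes were named by accession through a RefSeq table, and a gene's probe of highest mean brightness was used, for 15203 genes. Fits (lmFit, eBayes, Benjamini-Hochberg at 0.05) used all genes and were tested on simulated data. No member was saturated.

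The members and lists were chosen with earlier results of these data known. All members could be named; full statistics were given for at most 12 per comparison past the threshold whose arrays shared a sign, or that passed or had the 5 smallest p where fewer than 5 passed, and for other lists the 3 with the smallest p. A few further genes of those lists and markers were named after their values were seen. Alternatives were the background correction, median centring, processed signals, the deposited table, no filter, the mean of probes, the replicate number or slide as a block, other scalings of Cy3 and each array left out. Over all arrays, same-numbered B. clausii and B. bifidum arrays deviated from their group means together (correlations 0.30 to 0.46). Those numbered as an L. acidophilus array did not deviate with it (-0.09 to -0.06). Within slide 2 alone the correlation between same-numbered B. clausii and B. bifidum arrays was 0.07. Number 3 of both strains is on slide 1, so number and slide cannot be told apart over all arrays. Whether numbers pair cultures is not known. The number of arrays limits the precision.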

Additional observations from a re-analysis of the deposited data

Results flagged for a closer look

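In the untreated cells 31 of 80 groups of 4 arrays (40 members on each slide) had an array far from the other 3. Chance gives about 1 in 20 for independent groups. These groups are not independent, since the members share the same arrays, so that rate is no measure for their count. On slide 1 it was the B. clausii array in 18 members. Its untreated log2 level was below the others for Isg15 (7.81), Isg20 (9.52), Oasl1 (7.49), Usp18 (6.99), Ddx58 (6.23), Parp14 (8.03), Parp9 (7.60), Ifi35 (8.35), Samd9l (6.27), Trim25 (10.15) and Ifitm3 (12.10). It was above them for Eif2ak2 (10.42), Igtp (10.34), Ifi47 (8.71), Gbp2 (7.83), Gbp3 (8.68), Ifi44 (7.19) and Bst2 (15.26). Spot quality was low on that array, as described above, and its part in these values was not tested.

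On slide 2 the second B. bifidum array stood apart in 12 members. It was lower for Isg20 (11.77), Oasl1 (10.16), Usp18 (12.69), Parp14 (12.14), Irgm1 (10.95), Trim25 (10.85) and Ifitm3 (13.32), and higher for Oas3 (10.37), Oasl2 (9.54), Ddx58 (10.65), Parp9 (10.54) and Rtp4 (14.78). The first B. clausii array was lower for Ifi35 (11.59, against 11.72 to 11.74 on the others), a small gap.

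The ratio over untreated cells differed between slides at an adjusted p under 0.05 (limma) in 34 members with B. clausii and in 18 with B. bifidum.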

How the results depend on the processing

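Counts here are members past the threshold. Over all 8 arrays the 4 called with B. clausii became 2 without background correction and 0 with median centring, processed signals or the mean of a gene's probes. With the slide as a block the counts were 19 for B. clausii, 5 for B. bifidum and 4 between strains. For L. acidophilus 2 were called lower (2.74% of all genes were called), but this strain had no array on slide 2. Its estimate under this block is shifted by the slide term of the other strains, with a member median of -0.22 against 0.04 on both its arrays. With the replicate block the counts were 2 (both higher, with 3.31% of all genes called), 27 and 7 for the 3 strains and 0 between strains. Within slide 2 the replicate block moved no count by over 1.5 times. The pairing check is given with the processing. On slide 2 the B. bifidum count was 15 with processed signals (21.6% of all genes) and 8 with the deposited table (19.2%). Between strains it was 0 with median centring (0% of all genes), 8 with processed signals (2.46%) and 6 with the deposited table (1.79%). The slide difference gave 5 with median centring for B. clausii (0.245% of all genes). For B. bifidum it gave 0 with median centring (0% of all genes) and 6 with the deposited table (15%, against 12.6%). Over members well above background on the slide 1 array, chosen after seeing the data, it gave 17 for B. clausii. The untreated count was 2 with no normalization between arrays.

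With 1 array left out, counts ranged from 0 to 0 for L. acidophilus, 0 to 32 for B. clausii, 0 to 4 for B. bifidum and 0 to 24 between strains over all arrays. On slide 2 they ranged from 37 to 38, 15 to 28 and 24 to 30, for the slide differences from 32 to 35 and 12 to 18, and for the untreated level from 32 to 36. Signs turned for Ifit3 with L. acidophilus (0.092 with processed signals, and -0.51 to 0.075 without 1 of its replicates), Oas3 (-0.79 to 0.15 without 1 of its replicates) and Pml (-0.00032 with the slide as a block). The Pml value is shifted by the slide term of the other strains, as described above. Median centring turned Oasl1 (-0.25) and Trim25 (-0.11) with B. bifidum over all arrays, both on slide 2 (-0.33 and -0.092), and Tor3a in its slide difference (-0.28). The mean of probes turned Ddx58 between strains (-0.0063). The cause of these changes was not tested. Shares of all genes are not given for fits with 1 array left out. Changes in those counts are therefore not read as particular to the members. Arrays per group, dim probes on slide 1 and the lack of a dye swap limit what can be resolved.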
